A study of Mus musculus with 8 samples.

Results

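The Myh7 locus and the RNA transcribed antisense to it were examined in SRSF3-GFP iCLIP of neonatal mouse cardiomyocytes. The members were the listed positions on chromosome 14 (mm9) in a pair of windows, the minus strand from 55588000 to 55614000, which holds Myh7, and the plus strand from 55580001 to 55630000, which runs antisense to the start side of Myh6 and to all of Myh7. The windows were 26001 and 50000 nt long. They held 1621 of 769652 positions in replicate 1 (1553 plus, 68 minus), 3816 of 2093525 in replicate 2 (3611 plus, 205 minus) and 5647 of 3846902 in the authors' merged track. The replicates held 815414 and 2253688 cDNAs in all. The merged track also sums 3 libraries that have no track of their own here, and its excess over the replicates is called the other libraries. The locus and its bounds were chosen by the number of cDNAs listed on each strand there, so the levels below are a description and carry no test.

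The cells came from newborn C57BL/6 mice and were transfected with 15 µg of modified mRNA encoding SRSF3 fused to green fluorescent protein. They were irradiated with UV light 48 h later, and RNA crosslinked to the fusion protein was recovered through the GFP tag. The tagged protein was supplied from outside, and no control immunoprecipitation or RNA abundance of these cells was used here, so binding and RNA abundance cannot be told apart in these counts. The series also holds hearts of 3 SRSF3flox/flox;alphaMHC-CreERT2 mice and of 3 alphaMHC-CreERT2 mice, which are not analysed here. The labels do not say whether both iCLIP replicates came from separate cultures, so their spread may be technical.

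Myh6 and Myh7 encode the alpha and beta myosin heavy chains, the fast and slow motors of the heart muscle filament, and lie next to each other on the same strand. In mice the beta chain is typical of the fetal ventricle and the alpha chain takes over around birth. RNA is also made from the opposite strand: a promoter between the genes fires away from Myh6 and through Myh7, and Mhrt (Myheart) is a long noncoding RNA of this kind. SRSF3, a member of the SR protein family, binds RNA in the nucleus and takes part in its splicing and export. The iCLIP method counts cDNAs whose ends mark crosslinked nucleotides and keeps the strand, so RNA of both strands can be told apart at 1 place.

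No mm9 gene annotation was used here, so the reference layout is given on GRCm38 and no coordinate was converted. In GENCODE M21 on GRCm38, Myh7 (ENSMUSG00000053093.16) spans chromosome 14 from 54970684 to 54994626 on the minus strand (23943 nt, 41 exons in the transcript listed first), and 3756 bases separate it from Myh6. Mhrt (ENSMUSG00000097652.2) is an antisense gene on the plus strand from 54968678 to 54974349, 5672 nt long, with 5 exons that add up to 828 nt, and of its span 3666 nt overlap Myh7. Gm31251 (ENSMUSG00000115610.1), a second antisense gene, covers 12209 nt from 54979393 to 54991601, and 2 short plus-strand genes, Gm29015 and Gm17428, also lie inside Myh7. Together these 4 genes cover 66.7% of Myh7. From the end of Gm31251 to the next plus-strand gene, Ngdn, no plus-strand gene starts over 23852 bases. Within mm9 it could therefore not be said which of these RNAs a plus-strand cDNA belonged to, or whether a position was exonic or intronic.

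The transcription starts of Mhrt and Myh7 are shown as RefSeq gives them for GRCm38.p6, each on its own gene's strand. RefSeq starts Mhrt at base 54968787, which is not the first base that GENCODE gives. The Mhrt start is shown because plus-strand cDNAs began between the genes, and the Myh7 start because the antisense cDNAs ran past the upper bound of the Myh7 window. Capitals mark the first 50 transcribed bases of Mhrt (chr14:54968537-54968836, plus strand) and of Myh7 (chr14:54994577-54994876, minus strand).
Mhrt start: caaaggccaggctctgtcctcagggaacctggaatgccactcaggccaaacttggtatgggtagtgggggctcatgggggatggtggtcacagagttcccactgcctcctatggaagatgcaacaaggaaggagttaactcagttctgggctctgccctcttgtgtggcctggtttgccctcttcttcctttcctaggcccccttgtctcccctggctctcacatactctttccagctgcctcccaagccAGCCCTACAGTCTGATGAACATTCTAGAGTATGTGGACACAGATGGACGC
Myh7 start: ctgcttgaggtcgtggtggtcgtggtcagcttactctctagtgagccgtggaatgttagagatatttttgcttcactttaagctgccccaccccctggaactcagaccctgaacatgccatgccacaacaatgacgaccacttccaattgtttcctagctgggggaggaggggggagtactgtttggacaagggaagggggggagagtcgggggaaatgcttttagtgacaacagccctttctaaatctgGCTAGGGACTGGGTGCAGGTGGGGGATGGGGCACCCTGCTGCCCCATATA

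The published SRSF3 motif was searched in these windows on both strands as any of these words: ACAAC or ACATC or ACTAC or ACTTC or TCAAC or TCATC or TCTAC or TCTTC. Neighbouring words may overlap, and each start was counted. The Mhrt window held 2 words on the printed strand and 3 on the other. The Myh7 window held 3 words on the printed strand and 0 on the other, the strand of the antisense RNA. Of 32851 promoter windows of this length, 79.6% held a word on the printed strand and 80.3% on the other. In the spliced reference transcripts the words occurred 6.04 times per kb on the RNA strand of Mhrt (5 words) and 7.25 times on the other strand (6 words). They occurred 3.21 times per kb on the RNA strand of Gm31251 (4 words) and 12.8 times on the other (16 words). Gm29015, of 207 nt, went the other way, with 14.5 per kb on its RNA strand (3 words) and 0 on the other. For Myh7 the values were 9.13 on the RNA strand and 11.2 on the other. The median on the RNA strand over 111422 transcripts of at least 500 nt was 8.42 per kb. These matches describe reference sequence and were not tied to iCLIP positions.

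Antisense RNA, not Myh7 RNA, carried nearly all SRSF3-GFP signal in the Myh7 window. Replicate 1 listed 1474 antisense and 69 sense cDNAs there, and replicate 2 listed 3874 antisense and 210 sense cDNAs. Divided by the library total in units of 1000000 cDNAs (CPM) and by the length, the antisense strand had 69.5 and 66.1 CPM per kb in replicates 1 and 2, a mean of 67.8 ± 2.41 (SD, n = 2). The sense strand had 3.25 and 3.58 CPM per kb in replicates 1 and 2, a mean of 3.42 ± 0.233 (SD, n = 2; exact 95% Poisson intervals 2.53 to 4.12 and 3.12 to 4.10). The antisense level was thus 21.4 times the sense level in replicate 1 and 18.4 times in replicate 2, a mean of 19.9 ± 2.06 (SD, n = 2). Counting only positions listed in both replicates left 0.233 CPM per kb on the sense strand. The same filter took the antisense level over the whole plus window from 42.2 to 11.2 CPM per kb. It keeps less where positions are sparse, so these falls do not compare how well the strands recur.

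The plus strand held 95.5% of the cDNAs of the Myh7 window in replicate 1 (Wilson 95% interval 94.4% to 96.5%) and 94.9% in replicate 2 (94.1% to 95.5%). This share did not differ detectably between the replicates (two-sided Fisher exact test on the cDNAs of 2 libraries, p = 0.335, adjusted over 7 areas 0.391). Antisense cDNAs outnumbered sense cDNAs in 26 of the 26 bins of 1 kb in each replicate. Across these bins the plus share had a median of 96.0% in replicate 1 and 95.6% in replicate 2, with lowest values of 70.0% and 67.6%. All intervals here cover counting error only.

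**Figure D1:**
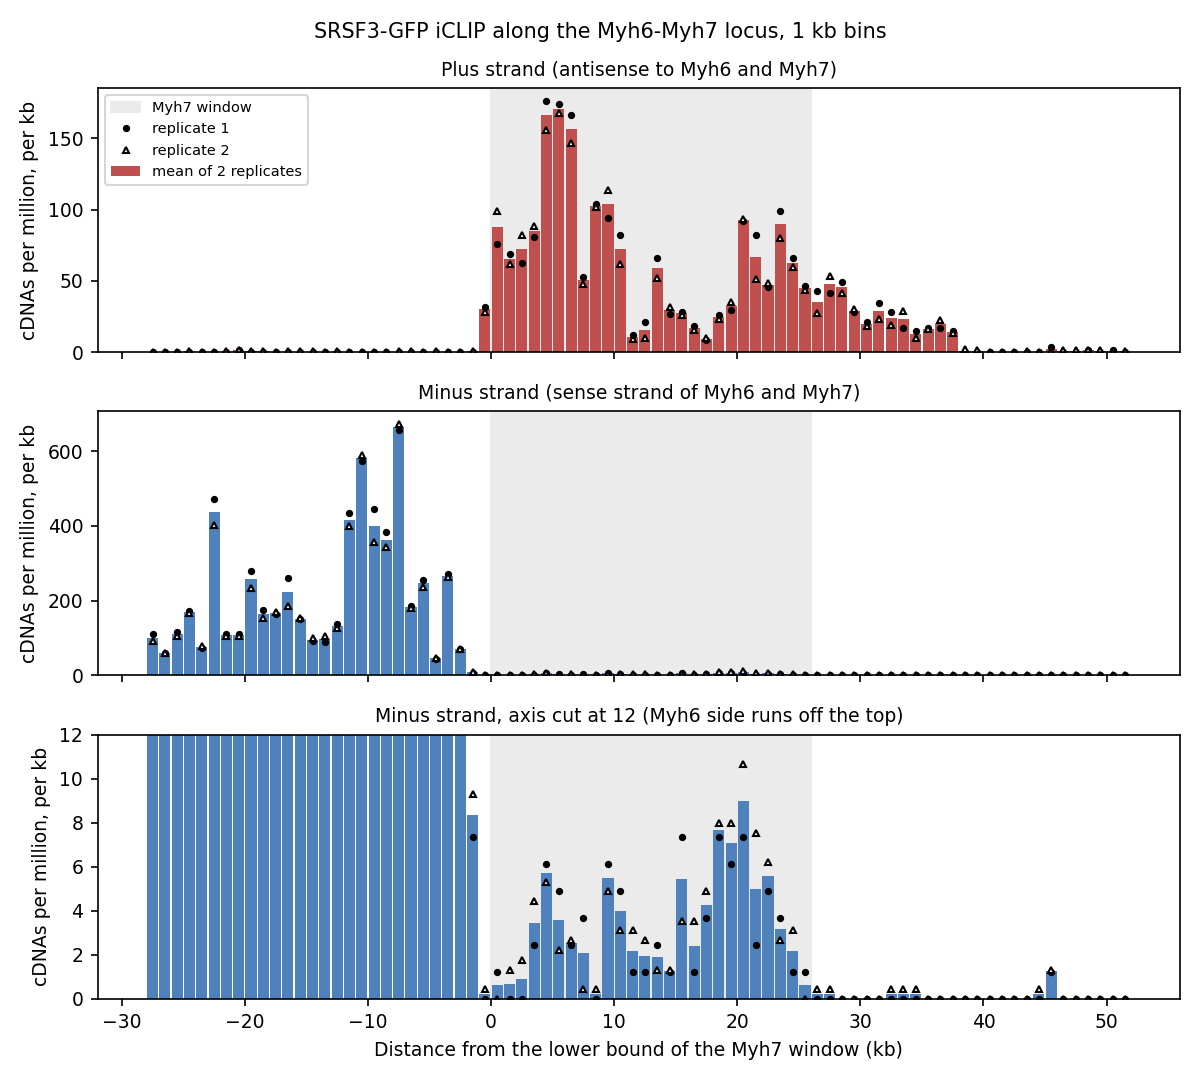
CPM per 1 kb bin on the plus strand (top), the minus strand (middle) and the minus strand with the axis cut at 12 (bottom), against the distance in kb from the lower bound of the Myh7 window, with bars for the mean of 2 replicates and points for each replicate. The plus strand rises where the minus-strand signal of the Myh6 side ends, has its highest mean of 171 CPM inside the Myh7 window and goes on beyond it, while the minus strand in the Myh7 window stays below 11 CPM per kb in each replicate.

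The strands changed over abruptly between Myh6 and Myh7. In the bin from 55585001 to 55586000 the minus strand had 70.6 ± 0.723 CPM and the plus strand 0 cDNAs in both replicates. From 55586001 to 55587000 the plus strand had 0 and 2 cDNAs in replicates 1 and 2, and the minus strand 6 and 21. From 55587001 to 55588000 the plus strand had 26 and 63 cDNAs, and the minus strand 0 and 1. In replicate 1 the last minus-strand position before the first antisense position of the stretch lay 704 nt from it, and in replicate 2 the distance was 92 nt.

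Antisense cDNAs then ran on without a gap of more than 817 nt, far beyond the annotated length of Mhrt. Taking positions without a gap of over 1 kb as one stretch, the antisense stretch ran from 55587535 to 55625976 in replicate 1, which is 38442 nt, and from 55586180 to 55627655 in replicate 2, which is 41476 nt. On GRCm38 the first base of Mhrt and the last base of Gm31251 enclose 22924 nt, and the first bases of Mhrt and Ngdn are 46776 nt apart. The next plus-strand position lay 7397 nt after the end of the stretch in replicate 1 and 3949 nt after it in replicate 2. The antisense stretch held 1766 cDNAs in replicate 1 and 4632 in replicate 2. Whether it is one RNA or several cannot be told from these positions.

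The antisense signal was uneven, with its highest bins near the end of Myh7 that faces Myh6. A lower but jagged stretch lay in the middle, and the level was higher again near the start of Myh7. The 3 highest bins were neighbours. The bin from 55593001 to 55594000 had 171 ± 4.54 CPM (SD, n = 2), the bin from 55592001 had 166 ± 14.4 and the bin from 55594001 had 157 ± 14.1 (SD, n = 2). The bins from 55597001 and 55596001 followed with 104 ± 13.9 and 103 ± 1.86 CPM. The spread between the replicates covers the differences within the first 3 bins and within the next pair, but not the step between them.

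The antisense level was 10.6 ± 2.40 CPM from 55599001 to 55600000 and 9.40 ± 1.15 CPM from 55605001 to 55606000, the lowest bins inside the Myh7 window. Between these bins it reached 59.1 ± 10.1 CPM, from 55601001 to 55602000. Nearer the start of Myh7 the antisense level stood at 92.8 ± 1.16 CPM from 55608001 to 55609000 and 89.6 ± 13.8 CPM from 55611001 to 55612000 (SD, n = 2). Of the antisense cDNAs of the Myh7 window, 35.1% lay from 55601001 upwards, the start side of Myh7, in replicate 1 (Wilson 95% interval 32.7% to 37.6%) and 33.2% in replicate 2 (31.8% to 34.7%).

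At the bounds of the Myh7 window the antisense signal did not stop. The last kb inside the upper bound had 45.0 ± 2.20 CPM and the first kb beyond it 35.2 ± 10.9 CPM (SD, n = 2). Beyond the window, from 55614001 to 55630000, the antisense strand had 20.4 and 19.2 CPM per kb in replicates 1 and 2. The antisense level opposite the Myh7 window was 3.41 and 3.44 times that level. That level is an average that includes the nearly empty bins after 55626000, so the ratio depends on where the plus window ends. The first kb inside the lower bound had 87.5 ± 16.2 CPM and the last kb before it 29.9 ± 2.78 CPM. The signal ended near 55626000, where the antisense level was 14.0 ± 0.993 CPM in the bin from 55625001 and 1.11 ± 1.57 CPM in the next (SD, n = 2). At both outer bounds of the plus window the antisense strand was at or close to 0, with 0 cDNAs in both replicates in the last kb inside the upper bound and in the first kb after it.

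**Figure D2:**
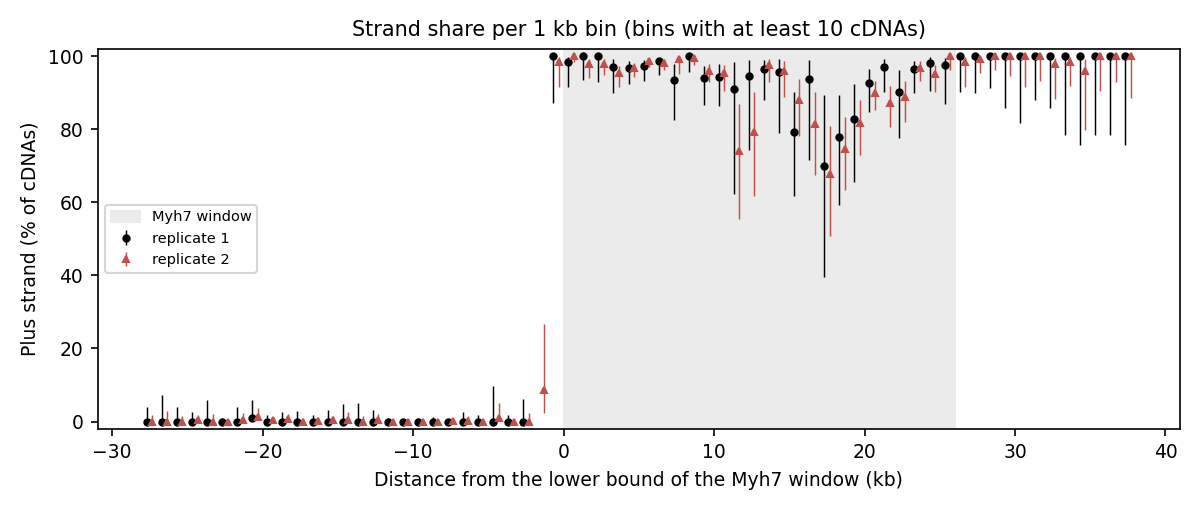
Plus-strand share of the cDNAs of each 1 kb bin with at least 10 cDNAs, in percent, against the distance in kb from the lower bound of the Myh7 window, for replicate 1 (circles) and replicate 2 (triangles) with Wilson 95% intervals. The share is near 0 on the Myh6 side up to 55586000, and 8.70% in the next bin in replicate 2. In the last bin before the Myh7 window it is already 100% and 98.4% in replicates 1 and 2. It is above 60% in every bin of the Myh7 window, with the lowest values of 70.0% and 67.6% in the bin from 17 to 18 kb. Beyond the window it is above 95% in all bins.

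Sense cDNAs of Myh7 were few and spread thinly. In replicate 1, 67 of the 68 sense positions held 1 cDNA, and no sense position held more than 2 in either replicate. The 5 highest sense bins were those from 55606001, 55608001, 55607001, 55592001 and 55610001. The bin from 55608001 to 55609000 held 6 sense cDNAs in replicate 1 and 24 in replicate 2, which is 7.36 and 10.6 CPM. The bin from 55606001 to 55607000 held 6 and 18, which is 7.67 ± 0.445 CPM (SD, n = 2). The stretch from 55601001 to 55614000, the start side of Myh7, held 59.4% of the sense cDNAs in replicate 1 (Wilson 95% interval 47.6% to 70.2%) and 65.2% in replicate 2 (58.6% to 71.4%). These intervals lie above those of the antisense strand for the same stretch, so the listed sense and antisense cDNAs were split differently along Myh7 in each replicate. The intervals cover counting error only, and sense cDNAs of exons shared with Myh6 may be missing or misassigned.

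The plus share was lowest in both replicates in the bin from 55605001 to 55606000. There replicate 1 had 7 antisense and 3 sense cDNAs, and replicate 2 had 23 antisense and 11 sense cDNAs. The bin from 55599001, the other low bin of the antisense strand, held 10 antisense cDNAs and 1 sense cDNA in replicate 1 and 20 antisense and 7 sense cDNAs in replicate 2, which is 90.9% and 74.1% plus. Antisense and sense levels per bin were hardly related over the 26 bins of the Myh7 window, with a Pearson r of 0.14 in replicate 1 and -0.07 in replicate 2 (Spearman rho 0.14 and -0.14). The bins share a library and its depth, and these values are descriptions only.

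The sense cDNAs were more frequent than opposite-strand cDNAs beyond the Myh7 window and on the Myh6 side. Minus-strand cDNAs made up 4.47% of the Myh7 window in replicate 1 (Wilson 95% interval 3.55% to 5.62%) and 5.14% in replicate 2 (4.51% to 5.86%). Beyond the Myh7 window, along the same antisense stretch, they were 0 of 266 cDNAs in replicate 1 (interval up to 1.42%) and 5 of 698 in replicate 2 (0.716%, interval 0.306% to 1.67%). On the Myh6 side, minus strand from 55560001 to 55580000, the plus strand had 1 of 3602 cDNAs in replicate 1 and 14 of 9096 in replicate 2, which is 0.0278% and 0.154%.

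Per kb, Myh7 sense RNA had 0.0147 times the cDNAs of the Myh6 side in replicate 1 and 0.0178 times in replicate 2. The Myh6 side, named so from the gene order on GRCm38, averaged 211 ± 13.7 CPM per kb (SD, n = 2). The antisense strand opposite the Myh7 window reached 0.315 and 0.328 times the level of the Myh6 side. Myh6 and Myh7 are near-identical in parts: 32.9% of the 30 nt words of the first listed spliced Myh7 transcript (2006 of 6106) occur unchanged in that of Myh6. The sources used here do not give how reads with several matches were treated, so sense cDNAs of shared exons may be missing from either gene or assigned to the other, and antisense cDNAs of these stretches are uncertain in the same way.

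**Figure D3:**
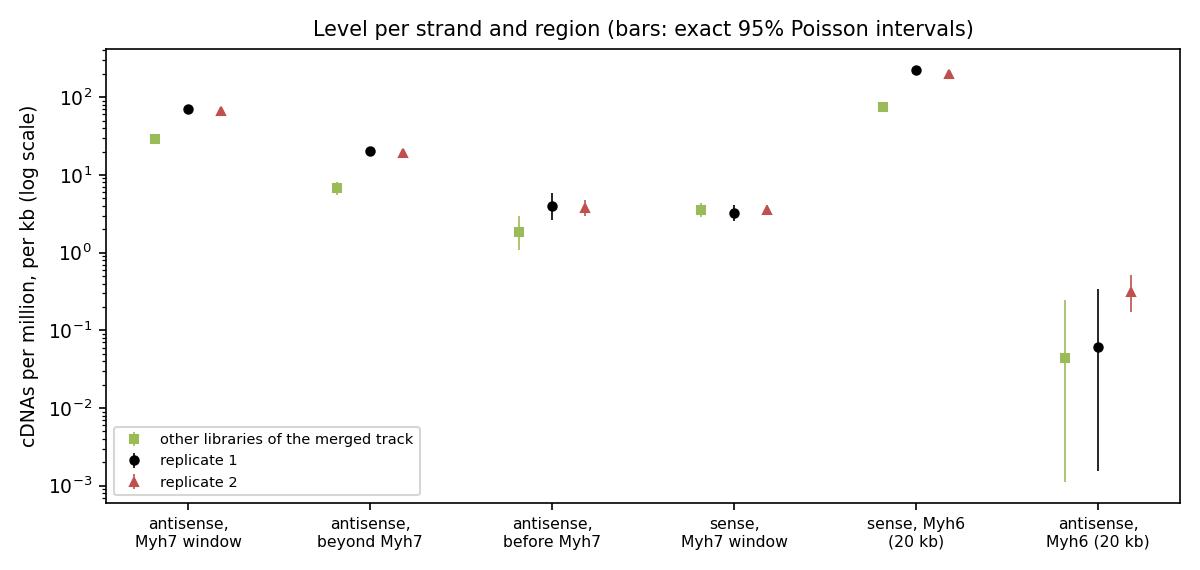
CPM per kb on a log axis for 4 antisense and 2 sense regions, in the other libraries of the merged track (squares), replicate 1 (circles) and replicate 2 (triangles), with exact 95% Poisson intervals. The replicates have 69.5 and 66.1 CPM per kb antisense to Myh7, against 3.25 and 3.58 CPM per kb sense, and the other libraries are lower than both replicates antisense to Myh7, beyond it and on the Myh6 sense strand, with overlapping intervals on the Myh7 sense strand.

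Among 237938 windows of 10 kb and strand with a cDNA in either replicate, ranked by the lower replicate, the antisense window from 55590001 to 55600000 was number 13, with 992 ± 21.7 CPM (SD, n = 2). The antisense windows from 55610001, 55600001, 55580001 and 55620001 ranked 34, 50, 161 and 377. The sense windows from 55600001 and 55590001 ranked 2443 and 4611, with 46.0 ± 7.78 and 30.1 ± 2.47 CPM. Of 14960 bins of 10 kb with at least 50 cDNAs over both strands, 49.8% had at least 1% of them on the lesser strand. Of the 5 bins of the locus, 4 did, with shares of 11.2%, 2.89%, 11.8% and 2.75%. The first of these, from 55580001, holds the changeover from Myh6 sense to Myh7 antisense.

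No window of the locus differed detectably between the replicates. Each window's cDNAs were set against the split of the library totals in an exact binomial test (two-sided, Benjamini-Hochberg over 13920 windows with at least 50 cDNAs). By this test 0 of the 8 tested windows of the locus passed a 5% false discovery rate, where 0.0934% of all windows did. Before adjustment none of the 8 had a p under 0.05, as against 5.57% of all windows (775 of 13920), and the lowest was 0.0531 in the exact test, for the antisense window from 55600001, whose log2 ratio of replicate 1 to replicate 2 was 0.19. The plus share per 10 kb bin did not differ detectably either. The Fisher exact test called 0 of the 5 bins of the locus and 0% of 14960 bins (133 had an unadjusted p under 0.05). These tests compare 2 libraries and cover counting error only. On simulated counts over the genome the window test recovered 78% of planted 4-fold and 27% of planted 2-fold differences. The plus-share test recovered 69.4% of 62 planted 6-fold changes of the odds. These were planted only in well-covered bins whose cDNAs were not nearly all on 1 strand. The bins from 55590001, 55610001 and 55620001, with 97.1%, 97.3% and 99.1% plus over both replicates, lay outside that range. The recovery rate does not cover them. Smaller differences may thus have been missed.

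**Figure D4:**
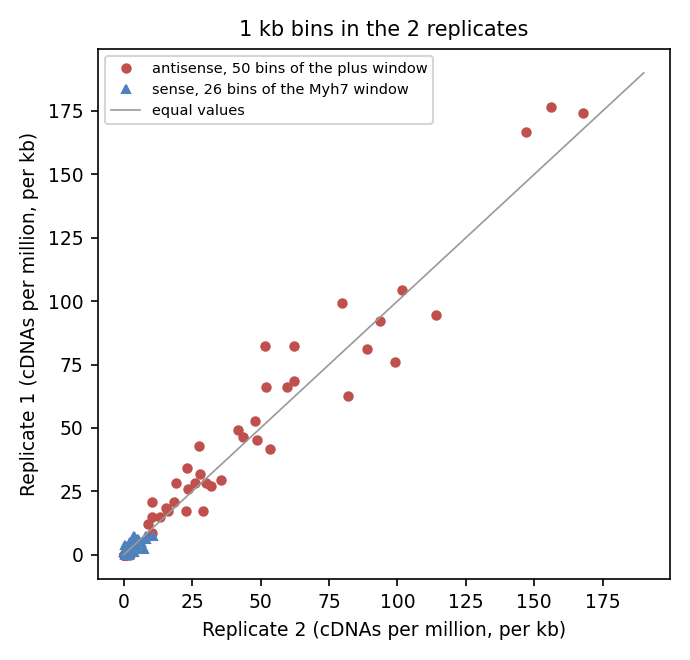
CPM per 1 kb bin in replicate 1 (vertical) against replicate 2 (horizontal), for the antisense strand in the 50 bins of the plus window (circles) and the sense strand in the 26 bins of the Myh7 window (triangles), with a line of equal values. The antisense bins lie along the line (r = 0.97), and the sense bins stay below 11 CPM in both replicates.

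The antisense profile was closely alike in both replicates and the sense profile less so. Over the 50 bins of the plus window, Pearson's r of the antisense levels was 0.97 and Spearman's rho 0.97, and over the 26 bins of the Myh7 window 0.96 and 0.94. The sense levels over the same 26 bins had 0.68 and 0.68, on counts of at most 6 per bin in replicate 1.

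Positions recurred between the replicates on both strands, on very unequal coverage. Of the 1553 antisense positions of replicate 1, 465 were also listed in replicate 2, which is 29.9% of the first list and 12.9% of the second, where replicate 2 listed 7.22% of the nucleotides of the plus window. In the Myh7 window alone, 426 of 1273 antisense positions were shared, which is 33.5% and 14.5%, where replicate 2 listed 11.3% of the nucleotides. Of the 68 sense positions of replicate 1, 7 were listed in replicate 2, which is 10.3% and 3.41%, where replicate 2 listed 0.788% of the nucleotides. The shared part of replicate 1 was thus larger on the antisense strand, but larger relative to coverage on the sense strand, where it rests on 7 positions. Among the antisense positions of replicate 1 the share found again was 26.3% at 1 cDNA, 55.7% at 2 and 81.8% at 3 or more (27 of 33).

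No single nucleotide dominated the antisense strand. The 5 positions highest in the lower replicate were 55592302, 55593561, 55592301, 55594998 and 55608220. Position 55592301 held 7 cDNAs in replicate 1 and 8 in replicate 2, and its neighbour 55592302 held 5 and 9. Position 55593561 also held 5 and 9. The largest share that any of these 5 took of the antisense cDNAs was 0.396%, at 55592301 in replicate 1. On the sense strand the highest position was 55608858, with 1 and 2 cDNAs, and the next 4 had 1 in each replicate.

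Sense and antisense positions fell on the same nucleotide at shares that lay above the antisense coverage in replicate 1 and below it in replicate 2. In replicate 1, 5 of the 68 sense positions lay on a nucleotide that also held an antisense position, which is 7.35%, beside 4.90% of all nucleotides listed on the antisense strand. In replicate 2 these values were 17 of 205, 8.29%, beside 11.3%. Within 5 nt of an antisense position lay 34 of the 68 sense positions in replicate 1 and 115 of the 205 in replicate 2. The share of all nucleotides within 5 nt of an antisense position was not computed, so these counts cannot show mirrored sites.

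The other libraries had less signal than the replicates on the antisense strand and on the Myh6 side. Per kb, the antisense strand opposite the Myh7 window had 29.1 CPM in the other libraries and 67.0 CPM in replicates 1 and 2 together, a log2 ratio of -1.20. The minus strand of the Myh6 side had 75.2 and 207 CPM, a log2 ratio of -1.46, while Myh7 sense RNA had 3.55 and 3.50 CPM, a log2 ratio of 0.02. In the two-sided exact binomial test over 21841 windows (Benjamini-Hochberg), 6 of 9 windows of the locus were lower in the other libraries, where 27.9% of all windows differed in either direction and 13.4% were lower. The 6 were the 5 antisense windows and the window with the start side of Myh6, with log2 ratios between -1.63 and -0.87. With 5 kb windows 11 of 15 were called in either direction, where 4631 of all 16180 windows were. This test sets 3 pooled libraries against 2 pooled replicates and covers counting error only, and the windows were chosen for their counts in these tracks. The 6 windows of 10 kb held 386 to 5212 cDNAs in the merged track, where 50 were enough for a window to be tested. Calls at the locus were thus easier to reach than over all windows, and the shares show no enrichment. The 3 sense windows in Myh7 and beyond did not pass, with log2 ratios between -0.19 and 0.16.

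The plus share of the Myh7 window was 89.1% in the other libraries (Wilson 95% interval 87.0% to 90.9%), below both replicates. In a test per 10 kb bin that was added after the tracks were seen, it was lower in the other libraries in 2 of the 5 bins of the locus. These were the bins from 55590001 (92.7% against 97.1%, Fisher exact test, adjusted p = 0.00178 over 23050 bins) and 55600001 (76.2% against 88.2%, adjusted p = 0.00132). Of all bins 0.82% passed, but passing is easier in bins with many cDNAs, so this share is no measure for the locus. The locus was chosen by its cDNAs per strand in these tracks, so the calls are a description and cover counting error only. A lower antisense level beside a like sense level gives a lower plus share by construction. The other libraries have no labels here, so what differs between them and the replicates cannot be told.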

How the data were processed

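The 2 iCLIP replicates of neonatal cardiomyocytes, which the labels place in 1 group, were analysed. The authors' deposited tracks hold a signed score per nucleotide: its size counts cDNAs and its sign gives the strand. They are cDNA hits on mm9 with annotation Ensembl 59 per the file headers, mapped with Bowtie 0.10.1 per the submitters' processing notes. Per the labels' protocols RNA was cut to 80 to 200 nt and precipitated with an anti-GFP antibody. Duplicate collapsing and multi-mapping are not given in the sources used here. The merged track sums 5 libraries, per the file headers, and its excess over the replicates is called the other libraries.

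Depth was 815414 cDNAs in replicate 1, 2253688 in replicate 2 and 1138453 in the other libraries. A count of 0 in a window allows 3 cDNAs, 3.68 and 1.33 CPM in the replicates. cDNAs were counted per strand in the windows, in 1 kb bins and in 10 kb windows, and divided by library totals and length. Intervals are 95% Wilson for shares and exact 95% Poisson for counts. Binomial and Fisher tests ran over the whole genome at a minimum of 50 cDNAs, with log2 ratios after adding 0.5 cDNAs, in Python 3.11.15 with scipy 1.17.1, and were tested on simulated data. Named bins and positions were the 5 highest in the lower replicate on each strand and the bins at the bounds. Any other bin named was picked by its value. The members, windows and lists were chosen with earlier results of these data known. No genes of like pattern are named, since 1 group gives no pattern over conditions. Cell type markers were not checked, because no mm9 annotation was used here.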

Additional observations from a re-analysis of the deposited data

Results flagged for a closer look

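The other libraries of the merged track hold signal at the locus that the comparison of the replicates did not use. They had 1000 cDNAs in the plus window and 105 sense cDNAs in the Myh7 window, both above the limit of 3 that a count of 0 allows. The locus was chosen by its counts in tracks that include these libraries, so passing this limit is a description only. Their antisense level opposite the Myh7 window was 29.1 CPM per kb and their sense level 3.55 CPM per kb, a ratio of 8.20. They have no labels here, so no sample or condition can be given for this signal.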

How the results depend on the processing

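The plus share of the Myh7 window was 94.2% when each position was counted once and 94.9% to 95.5% without replicate 1 or 2. Over positions listed in both replicates it was 98.9%. That filter favours the more densely listed strand (11.3% of antisense and 0.788% of sense nucleotides in replicate 2), so its value is no support for the excess. The sense level of 3.42 CPM per kb became 3.65 with the bounds moved inwards by 1 kb and 0.233 over shared positions, and was 3.25 to 3.58 without replicate 2 or 1. The antisense level over the plus window of 42.2 CPM per kb became 37.4 with positions counted once, 44.0 with the bounds moved, 44.1 without the 10 strongest windows in the library total, 11.2 over shared positions and 50.9 over the covered stretch, an alternative added with the data in view. Its value was 41.1 to 43.3 without replicate 1 or 2.

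Counting positions once raised the windows that differed between the replicates to 23 of 13325, against 13 of 13920. Of them 1 was at the locus: the minus-strand window from 55580001 on the Myh6 side, with an adjusted p of 2.39e-09 in the exact binomial test. There the log2 ratio of replicate 1 to replicate 2 was 0.45 by positions (806 and 1606). By cDNAs it was 0.01 (exact binomial test, unadjusted p = 0.840). Whether the unequal depth made this difference was not tested. Within 5 nt, shared antisense positions numbered 1218, against 465, and sense positions of replicate 2 beside an antisense position 115, against 17. Both counts rise with the tolerance by construction, and the coverage within 5 nt was not computed. With 5 kb windows, 11 of 15 windows of the locus differed between the other libraries and the replicates, against 6 of 9 with 10 kb windows. Over all windows the counts were 4631 of 16180 and 6083 of 21841. The genome-wide counts under the remaining alternatives stayed within 1.5 times. No paired analysis was possible because the iCLIP replicates form 1 group and the replicate numbers pair with nothing that has a file here.

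Depth limits the sense strand: with 69 cDNAs in replicate 1, its profile per bin rests on at most 6 cDNAs. Without an input or an RNA level of these cells, binding and abundance cannot be told apart on either strand.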
